A study of Rattus norvegicus with 4 samples.

Results

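The microRNAs (miRNAs) described here are encoded in the imprinted Dlk1-Dio3 region, which lies on chromosome 6 in the rat. They were chosen by name alone, as the probes of 43 miRNA numbers assigned to the region, with any letter or arm and without the names that end in an asterisk, and 49 of the 679 rat miRNA probes on the array fell under that rule. Of the 43 numbers, 42 had a probe, and miR-882 had none. The rule uses names and no measured value, although it was proposed with earlier results of these data known. The samples were 4 cultures of rat primary chondrocytes, the resident cells of cartilage, grown at 200000 cells per ml. One was untreated and collected at 0 h (called the control), and the others received 10 ng/ml of interleukin-1β (IL-1β), an inflammatory cytokine of arthritic joints, for 6, 12 or 24 h. The labels give no strain, sex, age or number of animals, and no treatment common to all cultures. Each group was 1 sample on 1 array with 5 spots per probe, so no p-value was computed, and every ± below is a spread or standard error over repeat spots on the array or arrays named, not over cultures. The only untreated array was that of 0 h, so IL-1β and time in culture cannot be told apart in any comparison with the control.

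In mammals, the Dlk1-Dio3 region carries protein-coding genes, Dlk1, Rtl1 and Dio3, that are expressed from the paternal chromosome, and long noncoding transcripts, among them Meg3, Rian and Mirg, that are expressed from the maternal one. Most of its miRNAs are cut from those maternal transcripts, and a subset runs antisense to Rtl1 and can cleave its mRNA in the mouse. The miRNAs are known for high levels in brain, placenta and embryo. A miRNA recognises its targets mainly through its seed, bases 2 to 8 from the 5′ end.

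The probe targets on the array were identical to a mature rat miRNA of RefSeq (assembly GRCr8) for 48 members, and that of miR-136 lay within its RefSeq hairpin. All lie on the plus strand of chromosome 6 within chr6:134298094-134579828, a span of 281.7 kb. They form a group of 15 probes next to Meg3 and Rtl1 (miR-770 to miR-370, 56.5 kb) and a group of 34 at Mirg, the miR-379 to miR-410 cluster (36.4 kb), with 188.9 kb between them. By the gene spans of that annotation, miR-770 lies within Meg3, 5 members (miR-431, miR-433, miR-127, miR-434 and miR-136) within the span of Rtl1, 15 within the long noncoding RNA gene LOC102555254 and 20 within another, LOC120103623. The other 8 lie in no other annotated gene. Exons and introns were not analysed here.

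The 8 members whose level changed between any pair of arrays, by the rule given below, carry the following sequences, 5′ to 3′, with the seed in capitals. They are shown to let a reader see that the changed members share no seed and are not close copies of each other.
miR-665: aCCAGGAGgcugaggucccuua
miR-341: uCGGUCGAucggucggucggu
miR-1188-5p: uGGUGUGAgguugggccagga
miR-329: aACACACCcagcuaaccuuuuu
miR-494: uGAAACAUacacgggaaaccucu
miR-495: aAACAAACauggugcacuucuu
miR-376b-3p: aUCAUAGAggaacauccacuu
miR-377: uGAAUCACacaaaggcaacuuuu
In the order along the chromosome, miR-665 lies at chr6:134321733-134321754, miR-341 at chr6:134347871-134347891 and miR-1188-5p at chr6:134348163-134348183, all on the Meg3 and Rtl1 side. On the Mirg side, miR-329 lies at chr6:134547973-134547994, miR-494 at chr6:134550163-134550185, miR-495 at chr6:134554103-134554124, miR-376b-3p at chr6:134558913-134558933 and miR-377 at chr6:134576498-134576520. Between miR-329 and miR-494 are 2.17 kb. Across all members there were 49 distinct seeds, with none shared between members. The relative most likely to be read by the probe of a changed member is miR-376a, whose target differs from that of miR-376b-3p by 3 edits, and the pair is shown here for that reason.
miR-376a: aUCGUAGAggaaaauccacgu
miR-376b-3p: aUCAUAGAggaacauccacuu
Of the 49 members, 7 have a target within 4 edits of another probe: miR-299, miR-369-3p, miR-376a, miR-376b-3p, miR-376b-5p, miR-376c and miR-485. The array cannot be assumed to tell such targets fully apart. Of those 7, miR-376b-3p is the one that changed, and the miR-376a probe was detected on no array.

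The arrays differed in background. A miRNA was counted as detected where at least 3 of its 5 spots exceeded 95% of the 261 empty spots on the same array. That limit lay at 151.3 intensity units for the control, 54.2 for 6 h, 96.4 for 12 h and 86.2 for 24 h. Total miRNA intensity ranged from 2.95e+06 units (control) to 4.71e+06 units (12 h). On the 12 h array the 7 mismatch control probes read a median of 24.4% of their matched probes, against 2.63% to 4.36% on the other arrays. Of the marker lists, 3 of 4 chondrocyte miRNAs (miR-140, miR-140* and miR-455*) were detected in the control and all 4 at 6, 12 and 24 h, and the 5 mesenchymal miRNAs were detected on every array. Of 5 blood cell miRNAs with a probe, none was detected. Of the 2 endothelial markers, miR-126 was detected at 6, 12 and 24 h and not in the control, and miR-126* on no array. Of the 3 liver markers, miR-192 and miR-194 were detected at 6, 12 and 24 h and not in the control, and miR-122 on no array. Of the 4 muscle markers, miR-206 was detected on every array, miR-1 and miR-133a at 6 h alone, and miR-133b on none. Among the 7 epithelial markers, miR-203 was detected at 6 h alone and the others on no array. The part of other cells in the results was not tested. Of the 5 neural markers, listed because members are abundant in brain, miR-128 was detected on all arrays and miR-124 at 6 h alone, while miR-9, miR-137 and miR-219-5p were detected on none. Their summed intensity was 695.0 units for the control, 564.8 at 6 h, 780.8 at 12 h and 569.9 at 24 h.

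Chondrocytes had signal for 30 of the 49 locus miRNAs (61.2%) on at least 1 array, against 51.9% of the other 630 miRNAs. On all 4 arrays 9 members were detected (18.4%), against 24.4% of the others. Those 9 were miR-127 and miR-434 of the Rtl1 antisense group and miR-379, miR-329, miR-494, miR-539, miR-382, miR-134 and miR-409-3p of the Mirg cluster. By array, 14 members (28.6%) were detected in the control, 29 (59.2%) at 6 h, 21 (42.9%) at 12 h and 18 (36.7%) at 24 h. The other 630 miRNAs were detected at 27.5%, 51.7%, 34.8% and 30.5% in the same order, so the share moved in parallel for members and non-members and was highest where the empty spots were dimmest. The part of the detection limit in those counts was not tested. Next to Meg3 and Rtl1, 5 of 15 probes were detected in the control, 11 at 6 h, 7 at 12 h and 4 at 24 h. Of the 34 Mirg probes, 9 were detected in the control, 18 at 6 h, 14 at 12 h and 14 at 24 h.

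**Figure D1:**
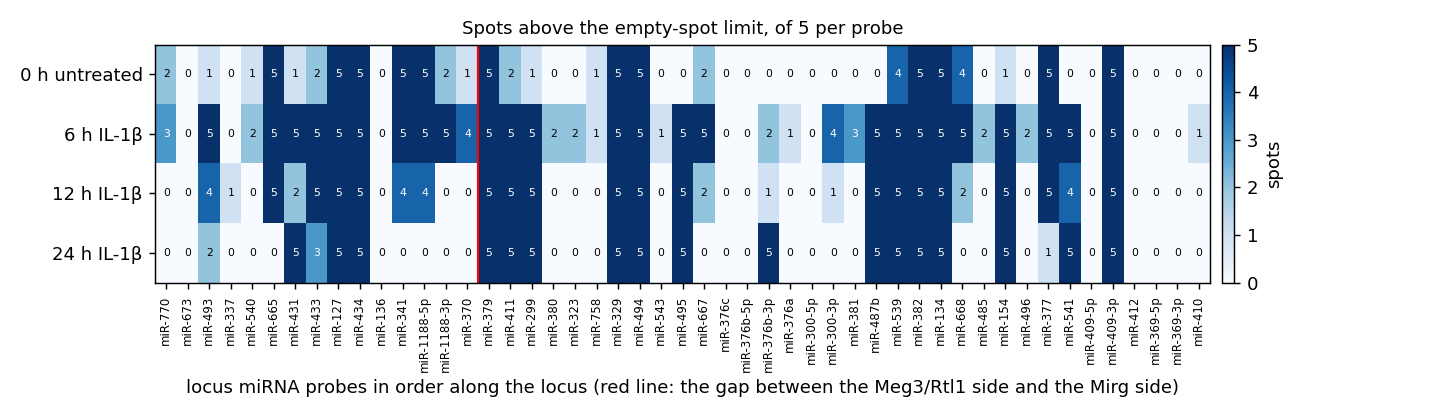
Number of spots, of 5, above the limit set by the empty spots, for each of the 49 probes (columns, in order along the locus) on each of the 4 arrays (rows), with darker blue for more spots. 9 probes pass with at least 3 spots on all 4 arrays, and 29 pass at 6 h.

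Signal on 1 array alone was seen for 7 members. miR-770, miR-1188-3p, miR-370, miR-667, miR-300-3p and miR-381 were detected at 6 h only, with mean intensities there of 56.1, 61.8, 58.9, 68.3, 58.0 and 53.1 units, close to that array's limit. miR-376b-3p was detected at 24 h only, at 166.1 units, well over the limit of 86.2 units. The 19 members with no detection on any array read 75.0 to 126.4 units in the control, 39.3 to 55.4 at 6 h, 56.5 to 83.4 at 12 h and 44.2 to 66.4 at 24 h. Among them were miR-136 and most miR-376 and miR-369 probes. For these only a bound can be given: they were not above background on these arrays, which does not show that the cells lack them.

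Levels are given next on the log2 scale after background correction and quantile normalisation of the 4 arrays. A level of 1 probe was compared only with the same probe on another array, since probes differ in how they bind and label. To be called higher or lower, a member had to differ by a log2 change of 1 or more (2-fold) that also exceeded 2 spot standard errors. Only miRNAs with signal on 1 or both of the arrays entered a comparison. For a fall or a rise from an array that did not detect the miRNA, the fold is also given as a bound against the lowest level detected there, which may be under 2-fold. Other settings named below are median scaling (arrays scaled to the median of the miRNAs seen on all 4), no normalisation, and unnormalised changes centred on their median over all miRNAs compared (centred changes, chosen after seeing the data). The unadjusted mean intensities printed for the changed members still hold each array's own background, and the calls rest on the log2 levels.

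On the Meg3 and Rtl1 side, miR-665 was highest at 12 h. Its spots averaged 208.7 ± 28.6 units (SD, 5 spots) in the control, 117.4 ± 22.1 at 6 h, 503.3 ± 130.2 at 12 h and 74.5 ± 5.83 at 24 h, the last below the detection limit. On the normalised scale its log2 level was 7.69 in the control, 7.42 at 6 h, 8.60 at 12 h and 6.74 at 24 h. Thus 12 h was the high array and 24 h the low one. The rise from 6 to 12 h was 2.27-fold (log2 1.18 ± 0.20), and the fall from 12 to 24 h was at least 3.50-fold (-1.86 ± 0.17). Both rest on the 12 h array, whose mismatch control probes read a median of 24.4% of their matched probes. There the spots of miR-665 varied most among the members detected, with an SD of 25.9% of the mean. The part of either in this peak was not tested. Against the control, the changes of 0.91 ± 0.22 at 12 h and -0.94 ± 0.15 at 24 h did not reach 2-fold. They passed the rule in 5 and 8 of the other settings at 2-fold, among them the authors' values (1.196 at 12 h and -1.01 at 24 h).

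miR-341, known from rodents, and miR-1188-5p lie within 1 kb of each other and had like courses. The intensity of miR-341 was 188.3 ± 36.7 units in the control, 78.6 ± 5.36 at 6 h, 102.3 ± 10.1 at 12 h and 50.9 ± 5.04 at 24 h, where it was not detected. For miR-1188-5p the spots read 185.1 ± 21.0, 85.6 ± 10.3, 100.0 ± 18.8 and 52.3 ± 5.76 units, again with no detection at 24 h. Both were highest in the control and lowest at 24 h. The log2 level of miR-341 went from 7.43 in the control to 6.92, 6.74 and 6.31 at 6, 12 and 24 h, and that of miR-1188-5p from 7.43 to 7.03, 6.70 and 6.35. At 24 h miR-341 had fallen at least 1.55-fold (-1.12 ± 0.20) and miR-1188-5p at least 1.56-fold (-1.09 ± 0.13). Both calls ended with levels corrected for the GC content of the target (-0.52 and -0.66) and with cyclic loess normalisation (-0.92 and -0.89). They also ended when undetected levels were raised to the lowest detected one (-0.64 for each). The call of miR-341 ended with the authors' values (-0.92), and that of miR-1188-5p with the median of spots (-0.99). Their targets are GC-rich, at 66.7% and 61.9%. At 12 h, where neither passed, median scaling gave -1.46 for miR-341 and -1.49 for miR-1188-5p, and both passed.

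Of the miRNAs antisense to Rtl1, none passed the rule in any comparison on this scale. miR-127, whose loss in the mouse raises Rtl1 and disturbs the placenta, had log2 levels of 10.66 in the control, 10.22 at 6 h, 9.94 at 12 h and 10.81 at 24 h. It was highest at 24 h, 0.87 ± 0.06 over the 12 h array, and with the authors' values that difference passed the rule (1.13). Its place at 12 h turned with the scaling: the unadjusted intensities were 975.8 units in the control, 985.0 at 6 h, 1234 at 12 h and 1820 at 24 h, so that without normalisation the control was the lowest array. miR-434 was at 8.18 in the control, 8.64 at 6 h, 9.03 at 12 h and 8.50 at 24 h, with its highest level at 12 h (0.85 ± 0.16 over the control). Without normalisation miR-434 passed the rule at 12 h, against the control (1.36) and against 6 h (1.07). miR-433 was at 6.78, 7.07, 6.87 and 6.86, not detected in the control, and miR-431 at 6.61, 6.83, 6.66 and 7.00, detected at 6 h and 24 h only. The levels of both moved by less than 0.4 on the log2 scale against the control. miR-493, between Meg3 and Rtl1, was detected at 6 and 12 h and stayed between 6.68 and 6.80 on all 4 arrays. Under median scaling, however, it was lower at 12 h than in the control and passed the rule (-1.02).

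In the Mirg cluster, miR-494 and miR-329 are near neighbours that parted at 24 h. miR-494 read 1133 ± 176.9 units in the control, 2691 ± 915.5 at 6 h, 10873 ± 1569 at 12 h and 10642 ± 756.2 at 24 h. Its 12 h and 24 h spots lie above every spot of the other 2 arrays. In log2 levels this was 10.86, 11.46, 13.05 and 13.20. miR-494 rose 4.58-fold at 12 h (2.19 ± 0.15) and 5.09-fold at 24 h (2.35 ± 0.11) against the control, while 6 h differed by 0.61 ± 0.27, short of the rule. That difference passed under median scaling (1.12), without normalisation (1.199) and with centred changes (1.52). From 6 h it rose 3.005-fold to 12 h (1.59 ± 0.28) and 3.34-fold to 24 h (1.74 ± 0.26), and the 12 h and 24 h levels differed by 0.15 ± 0.14.

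miR-329, one of the cluster miRNAs that activity induces through Mef2 in rat neurons, was brighter at 6 and 12 h than in the control and dimmest at 24 h. Its spots averaged 877.3 ± 71.0 units in the control, 2310.5 ± 422.5 at 6 h, 4081 ± 712.3 at 12 h and 259.7 ± 45.0 at 24 h. No spot at 24 h, of which the brightest read 312.7 units, reached the dimmest in the control, at 826.9 units. The log2 level was 10.41 in the control, 11.34 at 6 h, 11.37 at 12 h and 8.04 at 24 h. miR-329 fell 5.18-fold at 24 h against the control (-2.37 ± 0.13), 10.1-fold against 12 h (-3.33 ± 0.12) and 9.84-fold against 6 h (-3.30 ± 0.17). The differences at 6 h (0.93 ± 0.17) and 12 h (0.96 ± 0.12) against the control lay just under 2-fold. They passed it under some other scalings, reaching 1.72 and 2.21. In the authors' deposited values, which carry no spot error, miR-329 stood at 1247.5 in the control, 2464 at 6 h, 2719 at 12 h and 191.9 at 24 h, and miR-494 at 1649, 2774, 7826 and 9013 in that order. The arrays thus ranked as they did by the log2 levels for both.

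miR-377, studied in kidney mesangial cells for its effect on fibronectin, was lowest at 24 h. Its control value rests on uneven spots: 4 of them read 249.1 to 311.2 units and 1 read 2143 units, giving a mean of 653.6, or 281.2 without the bright spot. The means were 127.3 ± 45.4 units at 6 h, 363.9 ± 35.6 at 12 h and 77.3 ± 13.6 at 24 h, where it was not detected. The log2 level was 9.04 in the control, 7.47 at 6 h, 8.18 at 12 h and 6.76 at 24 h. By the rule miR-377 fell 2.97-fold at 6 h (-1.57 ± 0.75) and 4.86-fold at 24 h (-2.28 ± 0.71) against the control, and at least 2.61-fold from 12 to 24 h (-1.42 ± 0.09). With the median of spots in place of the mean, the 6 h change was -1.13. That was still over 2-fold, but it failed the rule because the spot standard error still held the bright spot. The changes at 24 h were then -1.72 against the control and -1.46 against 12 h, and both passed. In the authors' values the change at 6 h was under 2-fold (-0.65), and the change at 24 h against the control was -1.51. The size of the changes against the control thus depended on the bright spot, and no bound is given for them.

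miR-495 and miR-376b-3p were highest at 24 h, and neither was detected in the control. miR-495 read 121.2 ± 14.2 units in the control, 84.3 ± 15.5 at 6 h, 165.7 ± 20.8 at 12 h and 173.5 ± 28.2 at 24 h, which gave log2 levels of 6.55, 7.00, 7.28 and 7.57. It rose at least 1.58-fold at 24 h (1.02 ± 0.12), just inside the rule. The spots of miR-376b-3p averaged 100.0 ± 14.0, 52.6 ± 9.95 and 80.0 ± 13.3 units in the control and at 6 and 12 h, below detection each time, and 166.1 ± 12.9 units at 24 h. Its log2 levels were 6.29, 6.34, 6.44 and 7.53, a rise at 24 h of at least 1.54-fold against the control (1.23 ± 0.09), 2.28-fold against 6 h (1.19 ± 0.12) and 1.87-fold against 12 h (1.08 ± 0.10). Against the control, the GC correction left 0.55 for miR-495 and 0.82 for miR-376b-3p, and scaling to the median of the miRNAs seen on all arrays left 0.18 and 0.42, so these 2 calls ended under both. Leaving the 12 h array out of the normalisation ended the call of miR-495 as well (0.95), and no other call at 6 or 24 h. Without normalisation the calls against the control ended too (0.66 for miR-495 and 0.90 for miR-376b-3p), as with centred changes (0.36 and 0.60). They also ended with undetected levels raised to the lowest detected one (0.66 and 0.62), and that of miR-495 with cyclic loess (0.93). For miR-376b-3p, the call against 6 h ended under median scaling (0.95). Its call against 12 h ended without normalisation (0.99) and with undetected levels so raised (0.90).

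**Figure D2:**
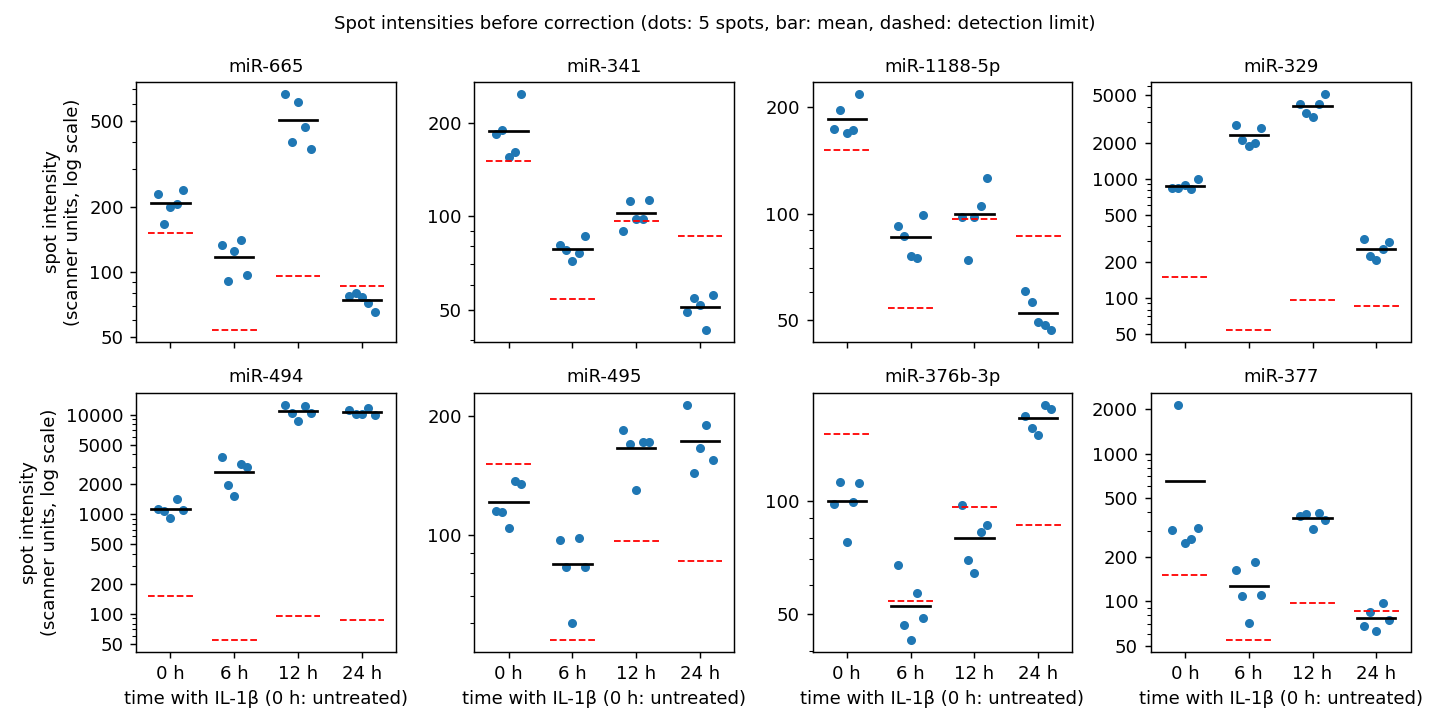
Intensities of the 5 spots (dots) of each of the 8 changed members on the 4 arrays, in scanner units before correction on a log axis, with the mean as a bar and the array's detection limit as a dashed line. miR-494 is high at 12 and 24 h, miR-329 is low at 24 h, and 1 control spot of miR-377 at 2143 units stands apart from the other 4.

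The rest of the Mirg cluster varied less. miR-379, at the start of the cluster, had log2 levels of 8.99, 8.95, 8.86 and 9.07 in the control and at 6, 12 and 24 h, a range of 0.21, and miR-382 had 7.50, 7.62, 7.55 and 7.50, a range of 0.13. miR-409-3p was at 7.30, 7.17, 7.00 and 7.26 and miR-539 at 7.21, 7.52, 7.30 and 7.61. These 4 were detected on every array, with ranges from 0.13 to 0.40 on the log2 scale. Under median scaling miR-409-3p was lower at 12 h than in the control and passed the rule (-1.09). miR-134, which limits dendritic spine size through Limk1 in rat neurons, was lowest at 12 h (7.40) and highest at 24 h (8.14), with 7.75 in the control and 7.94 at 6 h, and its difference between 12 and 24 h was 0.74 ± 0.11.

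Further members of the cluster were below detection in the control and above it on all 3 treated arrays. The limit was highest in the control, at 151.3 units, and lowest at 6 h, at 54.2 units. Their unadjusted means were lower at 6 h than in the control. That of miR-411 was 156.4 units in the control (2 of 5 spots over the limit) and 98.5 at 6 h. For miR-154 the means were 136.9 and 92.6 units. The part of the limit in these detections was not tested. miR-411 had a log2 level of 7.03 in the control, 7.23 at 6 h, 7.31 at 12 h and 7.89 at 24 h, the last 0.87 ± 0.11 over the control. miR-154 had 6.74, then 7.15, 7.08 and 7.42, miR-541 had 6.61, then 6.86, 6.84 and 7.34, and miR-487b had 6.58, then 6.90, 6.86 and 7.11. Each of these 4 was highest at 24 h, and none reached 2-fold on this scale. With plain subtraction of background or an offset of 16, miR-411 (1.12 and 1.09) and miR-541 (1.09 and 1.02) passed the rule at 24 h against the control. Under median scaling, however, the median change of all 23 members compared at 24 h was -0.38, against 0.32 on the quantile scale. miR-299 had 6.91, then 7.39, 7.49 and 7.23, with its top at 12 h. Its probe target is 3 edits from that of miR-3563-5p, which was detected on every array, so signal of the latter may enter it. miR-668 went the opposite way, detected in the control (7.14) and at 6 h (6.64) and not at 12 h (6.57) or 24 h (6.55), a difference of -0.58 ± 0.18 at 24 h. It passed the rule there under median scaling (-1.53), without normalisation (-1.04) and with centred changes (-1.34).

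Counted over the locus on the quantile scale, 1 member had changed at 6 h, 1 at 12 h and 7 at 24 h. Under median scaling, however, the counts were 4 (13.8%), 7 (31.8%) and 7 (30.4%), against 7.89%, 18.5% and 21.9% of all miRNAs compared. At 6 h against the control, 1 of 29 members compared had fallen (miR-377) and none had risen, against 3.66% of all 355 miRNAs compared that changed either way and 2.25% that fell. At 12 h, 1 of 22 had risen (miR-494) and none had fallen, against a background of 9.64% of 249 miRNAs changed, 5.62% higher and 4.02% lower. Median scaling gave 2 higher and 5 lower members at 12 h. Centred changes gave 2 higher and 3 lower (22.7% of members, against 16.9% of all miRNAs). At 24 h, 7 of 23 had changed (30.4%), against 13.7% of 233 miRNAs, 8.15% higher and 5.58% lower. The 3 higher and 4 lower members were miR-494, miR-376b-3p and miR-495, which rose, and, as the lower ones, miR-329, miR-377, miR-341 and miR-1188-5p, which fell. The split was 1 higher and 6 lower under median scaling, without normalisation and with centred changes alike. Of all miRNAs compared, 21.9%, 22.3% and 21.5% changed under those 3 settings. When each undetected level was raised to the dimmest detected one, the count at 24 h was 3 (13.0% of members, against 10.3% of all miRNAs), near the background. When detection on both arrays was required, 2 of 9 members passed (miR-494 and miR-329), against 10.98% of 164 miRNAs. No member changed at all 3 times. The 3 comparisons share the control array, and their counts are therefore not independent.

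Between treated arrays, 2 of 29 members rose from 6 to 12 h (miR-494 and miR-665) and none fell, against 1.41% of all miRNAs changed and 1.13% that rose. From 12 to 24 h, 1 of 23 rose (miR-376b-3p) and 3 fell (miR-329, miR-377 and miR-665), against 9.68% of all changed, 4.03% higher and 5.65% lower. From 6 to 24 h, 2 of 30 rose (miR-494 and miR-376b-3p) and 1 fell (miR-329), against 7% of all changed, 3.92% higher and 3.08% lower.

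The median log2 change of the members compared was 0.03 at 6 h and 0.09 at 12 h, the same as over all miRNAs compared (0.03 and 0.09), but at 12 h it lay below that of all miRNAs under median scaling (-0.64 against -0.37), without normalisation (0.13 against 0.40) and with centred changes (-0.27 against 0). At 24 h it was 0.32, against 0.02 over all, and 16 of 23 members lay above 0 (69.6%, against 53.2% of all), but under median scaling the members' median was -0.38 against -0.19 over all, and without normalisation it was 0.10 against 0.30. The place of the members against all miRNAs at 24 h thus turned with the scaling. By side, the median at 24 h was 0.08 over 7 members next to Meg3 and Rtl1, of which 2 fell, and 0.40 over 16 Mirg members, of which 3 rose and 2 fell.

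**Figure D3:**
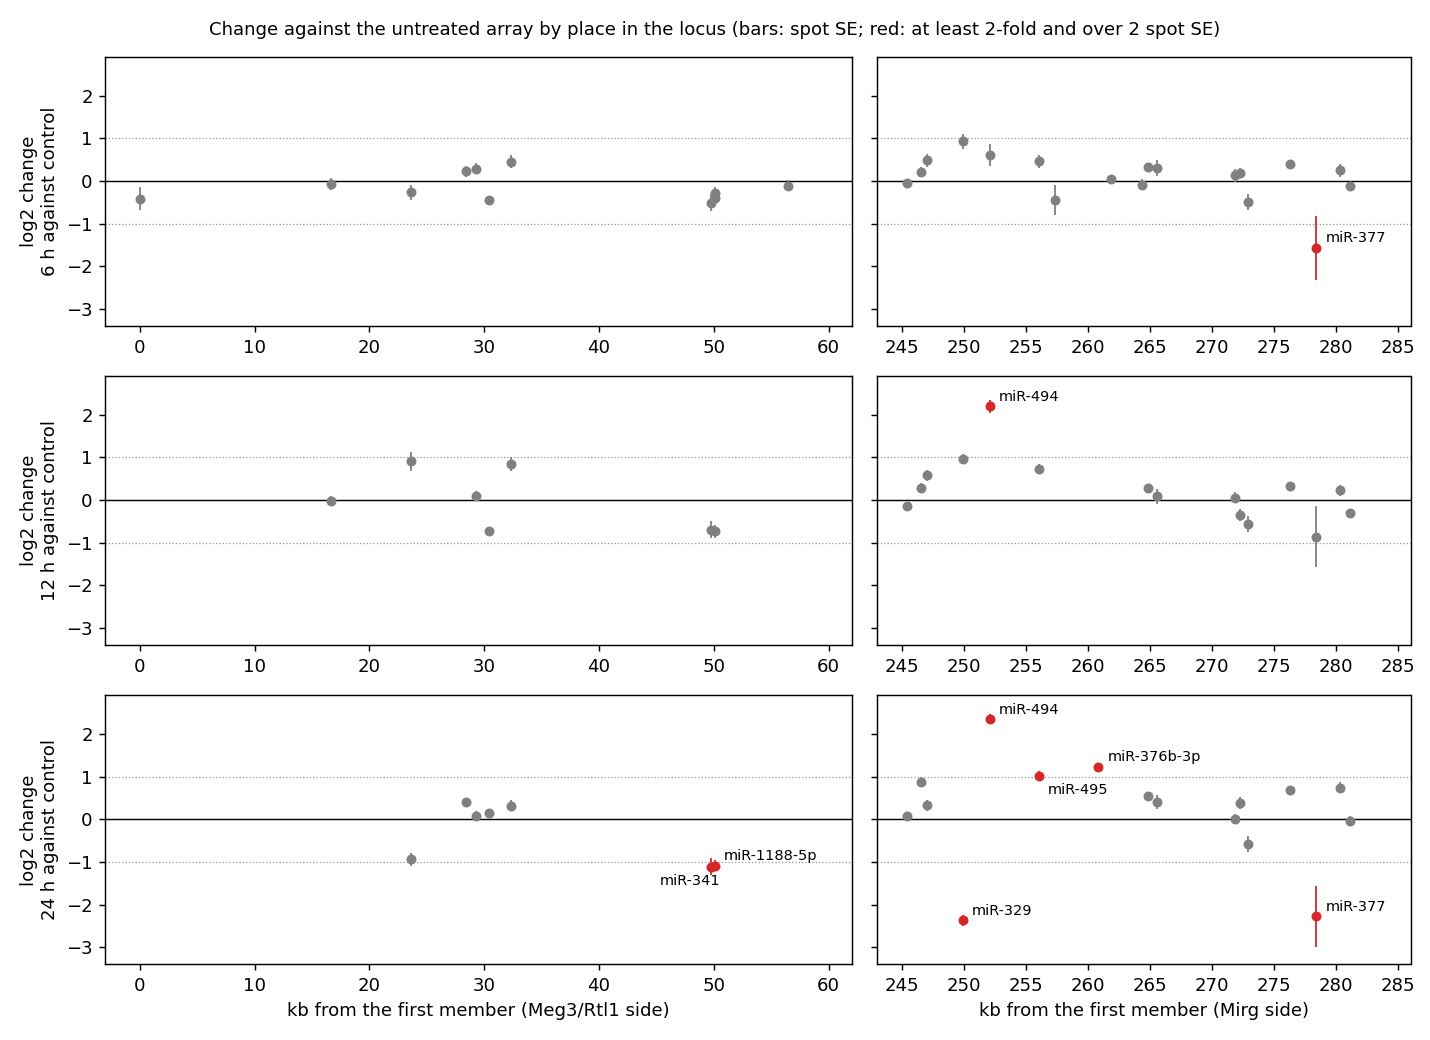
Log2 change against the control at 6, 12 and 24 h (rows) of each member detected on at least 1 of the 2 arrays, by distance in kb from miR-770, with the Meg3 and Rtl1 side at left and the Mirg side at right. Bars are spot standard errors, dotted lines mark 2-fold, and red points passed the rule: 1, 1 and 7 members, with miR-329 and miR-494 next to each other at 24 h and on opposite sides of 0.

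Base composition moved with the change. Over all 233 miRNAs compared at 24 h, the change and the GC content of the probe target correlated at r = -0.44, and over the 23 members at r = -0.21, as a description across probes that share the same arrays. Members on the Meg3 and Rtl1 side had a median GC content of 59.1% and those on the Mirg side 45.5%. With GC correction, 3 members passed at 24 h in place of 7, which is 13.0% of members against 10.7% of all miRNAs, near the background. miR-494 (43.5% GC), miR-329 (40.9%) and miR-377 (34.8%) still passed, at 2.13, -2.68 and -2.81.

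**Figure D4:**
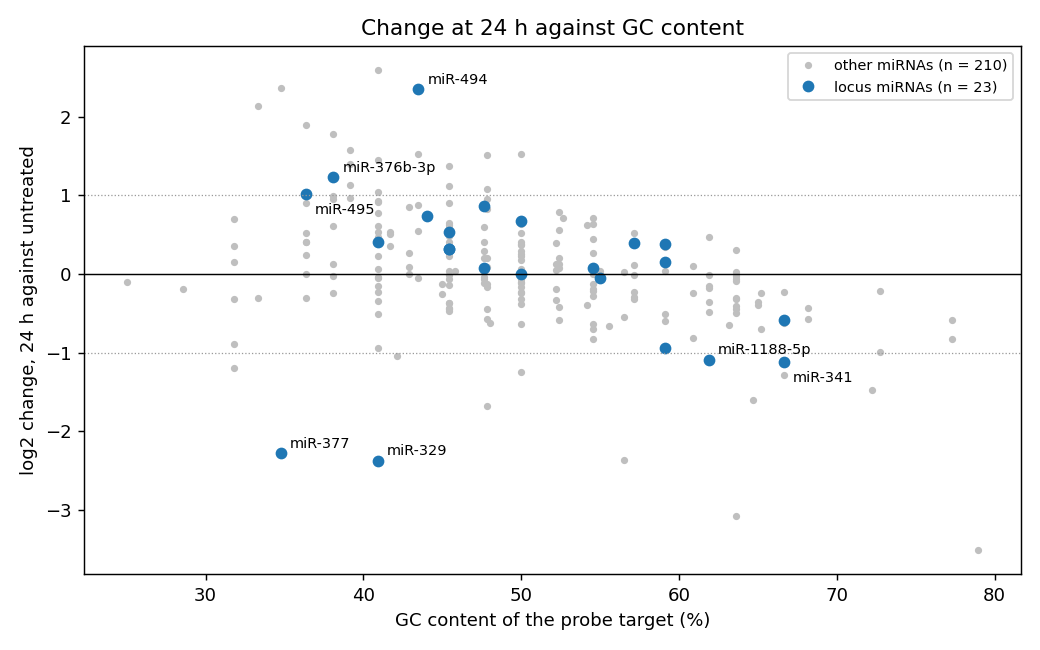
Log2 change at 24 h against the control by the GC content of the probe target, for 23 locus miRNAs (blue) and 210 other miRNAs (grey), with dotted lines at 2-fold. The grey points fall to the right, miR-341 and miR-1188-5p lie among the GC-rich probes, and miR-329 and miR-377 lie low among the GC-poor ones.

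Most hairpins of the locus give an arm named with an asterisk, and 34 such probes were on the array. Of these, 13 were detected on at least 1 array (38.2%, against 52.6% of all 679 miRNAs). On all 4 arrays 3 were detected (miR-485*, miR-496* and miR-758*), or 8.82%, against 24.0% of all. None changed in any of the 6 comparisons, but only 7 to 13 of them entered each. Of all miRNAs compared, 1.41% to 13.7% changed, so with so few probes a count of 0 says little about these arms. Over 39 pairs of a member and its opposite arm, both were detected at least once in 8, the member alone in 16, the opposite arm alone in 6 and neither in 9. miR-758* read 543.5 units in the control and 532.1, 685.3 and 640.6 units at 6, 12 and 24 h, while miR-758 was detected on no array. The opposite arms of 2 strongly changed members, miR-494* and miR-377*, were not detected, and miR-329* was detected at 6 h only, so their changes could not be followed on the other strand of the hairpin.

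Seeds were shared with 6 probes outside the members. miR-329 shares its seed with miR-362*, which was not detected on any array, at 82.7 units in the control and 52.5, 78.3 and 48.0 units at 6, 12 and 24 h. The seed of miR-299 is that of miR-3563-5p, detected on every array. The partners of miR-376c, miR-376b-5p, miR-381 and miR-410 were not detected on any array.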

How the data were processed

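Per the labels, the authors took total RNA, size-fractionated it, tailed the small RNAs with poly(A) and tagged them for Cy5 staining, on 1 array per group. The deposited spot files hold the mean intensity of each spot in linear scanner units, with background still in place (empty spots had medians of 46.2 to 122.6 units), and a second deposited table by the authors gives 1 intensity per miRNA and array, by a method not given in the sources used here. The scanner is likewise not given in the sources used here. From the spots, normexp correction (offset 50) and quantile normalisation over miRNA spots with limma 3.58.1 in R 4.3.3 gave log2 levels, averaged over 5 spots. Later steps used Python 3.11.15 with numpy 2.4.6, pandas 2.3.3 and matplotlib 3.10.9. With 1 array per group the number of arrays limits the precision. Levels on all 4 arrays are given for the 24 members detected on at least 2 arrays or changed in any of 6 comparisons; members detected on 1 array are named, and the others are given by count and range. Members, marker lists and rules were chosen with earlier results of these data known. Alternatives covered background, normalisation, filters, spot summary, GC content and the authors' values. Sequences and positions came from the spot files and RefSeq (GRCr8).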

Additional observations from a re-analysis of the deposited data

How the results depend on the processing

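No paired analysis was possible because each group is 1 array. No called member turned its direction under any alternative run. The calls of miR-494 (4), of miR-329 (3), of miR-665 (2) and of miR-377 at 24 h (2) held in every alternative that gave a value. Leaving the 12 h array out of the normalisation gave no value for comparisons with 12 h, which both calls of miR-665 are. The calls of miR-341, miR-1188-5p, miR-495, miR-376b-3p and of miR-377 at 6 h each ended in at least 1 alternative. The alternatives chosen after seeing the data were undetected levels raised to the dimmest detected one (called the floor below), unnormalised changes centred on their median, and related probes left out. Where they gave a value, some alternatives kept the main levels with the same or a looser rule and so could not end a call. These were the 1.5-fold rule, no spot-error rule, no detection filter, detection on both arrays and related probes left out. The count of members changed at 6 h against the control (1) was 4 with median scaling, 3 without normalisation, 0 with the authors' values, 0 with the median of spots, 3 with a 1.5-fold rule and 2 with centred changes. At 12 h (1 of 22) it was 4 with plain subtraction (14.1%), 3 with an offset of 16 (14.5%) and 2 with cyclic loess (8.84%). It was 7 with median scaling (18.5%), 4 without normalisation (23.3%) and 2 with GC correction (8.03%). The authors' values gave 3 (11.2%), the median of spots 2 (10.0%), a 1.5-fold rule 8 (29.7%) and centred changes 5 (16.9%). At 24 h (7 of 23) it was 3 with GC correction (10.7%) and 2 of 9 with detection on both arrays (10.98%). It was 11 with a 1.5-fold rule (33.5%) and 3 with the floor (10.3%). From 6 to 12 h (2 of 29) it was 4 without normalisation (7.04%). From 12 to 24 h (4 of 23) it was 1 of 16 with detection on both arrays (9.90%). From 6 to 24 h (3 of 30) it was 9 with a 1.5-fold rule (21.3%). Medians are listed where they moved by at least the median spot standard error of the members compared. The median log2 change of the members at 6 h (0.03) was -0.47 with median scaling and -0.39 without normalisation. At 12 h (0.09) it was -0.053 with cyclic loess, -0.64 with median scaling, -0.13 with detection on both arrays, -0.040 with the floor and -0.27 with centred changes. At 24 h (0.32) it was 0.18 with cyclic loess, -0.38 with median scaling, 0.10 without normalisation, 0.17 with GC correction, 0.15 with detection on both arrays, 0.077 with no detection filter, 0.15 with the floor, -0.20 with centred changes and 0.15 with related probes left out. Over all miRNAs compared, the median change under median scaling was -0.40 (6 h), -0.37 (12 h) and -0.19 (24 h), and with no normalisation -0.32, 0.40 and 0.30. The causes of these shifts were not tested. Probes near the empty spots carry little signal over background, and the control array, with the highest limit, bounds what could be seen to rise.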

Other observations

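The span of the locus also holds 9 RefSeq hairpins on the minus strand, chosen for a look after their values were seen, with 10 probes on the array. Of these, miR-3563-5p, from the hairpin opposite miR-299, was detected on all 4 arrays, and the other 9 on none. It read 197.3 units in the control and 165.3, 248.5 and 180.9 units at 6, 12 and 24 h, and its log2 levels were 7.60, 7.86, 7.72 and 7.63. Since its target lies 3 edits from that of miR-299, the array cannot be assumed to tell the strands apart.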
